A study of Drosophila melanogaster with 10 samples.

Results

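The control embryos of a Drosophila melanogaster study of dacapo were described on their own, as a picture of which genes late embryos use and how strongly. They are 2 of the 10 RNA-seq libraries of the series, chosen by their label as the control genotype, and no other genotype enters any value below. Both came from embryos at stages 15 to 16 raised at 25 °C that carried the prospero-Gal4 driver (pros-Gal4/+) with no UAS transgene, so every control embryo holds the yeast transcription factor Gal4 under prospero control. RNA was taken from whole embryos, and the libraries, sequenced from polyA-selected RNA as single reads of 50 bases, are described in the labels as independent samples. They are called control 1 and control 2. The embryos' sex is not given in the sources used here.

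Stages 15 and 16 belong to the late phase of embryonic organ building, before the cuticle hardens and the larva hatches. By then the midgut has closed around the yolk, muscles have fused and attached, axons have built the nerve cord, and the epidermis and trachea secrete chitin and its partner proteins. Most epidermal cells have left the division cycle, while neural progenitors finish their lineages. Whole-embryo RNA is a sum over all these cells: in such bulk samples, fewer cells of a type and less RNA per cell cannot be told apart.

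The deposited unit is log2 RPKM, reads scaled by transcript length and by mapped reads, and it is given below as plain RPKM. Of 15422 genes in the table, 9816 (63.6%) reached 1 RPKM in both libraries. These are called expressed below. A further 1797 genes were listed at 0 in both. The median expressed gene stood at a mean of 21.7 RPKM, the 10th percentile at 2.88, the 90th at 129 and the 99th at 1940. Of all genes, 1254 reached 100 RPKM in both libraries and 140 reached 1000. The sum of all RPKM was concentrated in few genes. The 10 highest held 7.65% of it in control 1 and 7.92% in control 2, the 100 highest held 41.6% and 42.8%, and 158 genes together held 50% of the mean.

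**Figure D1:**
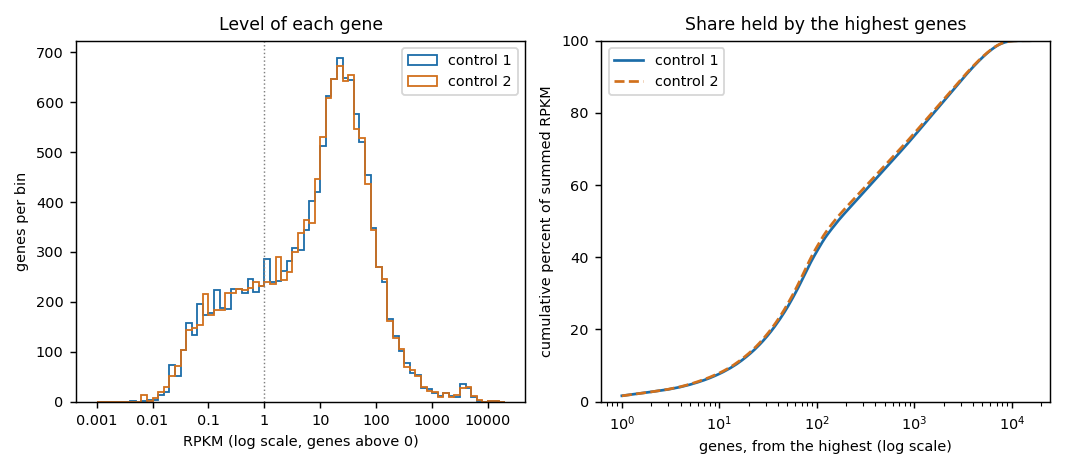
The left panel plots the number of genes per bin of RPKM (log axis, genes above 0, 1 line per control library, dotted line at 1 RPKM); the right panel plots the cumulative percent of summed RPKM from the highest gene downwards. The 2 libraries trace nearly the same curves, with a main mode between 10 and 100 RPKM, a shoulder of low genes below 1 RPKM and a small separate mode above 1000 RPKM, and the 100 highest genes reach 41.6% and 42.8% of the sum.

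With 1 group of 2 libraries no test between groups exists, and none was made. The levels of 2 genes or lists are said to differ only where both libraries of one lie above both of the other. The labels give 20.7 to 43.4 megareads as the range over all samples. Genes whose values equal 1 counted read point to about 25.7 megareads counted in control 1 and 25.1 megareads in control 2. At those depths a gene of the median exon length, 2086 bases, reaches 0.0559 and 0.0572 RPKM with 3 reads, so a gene listed at 0 may have a level of up to about these values. Both the absolute scale and the order between genes with different numbers of transcripts are uncertain. RPKM multiplied by annotated exon length and summed over genes came to 190% of the total that 1 shared read count allows in each library, and to 150% with each gene's median transcript length. How the deposited values combine a gene's transcripts was not tested.

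The highest gene was Osi6, which lies at 3R:6234708-6237181 (build BDGP6) and encodes a member of the insect Osiris family of membrane-associated proteins of cuticle-forming epithelia. It stood at 15171 RPKM in control 1 and 15147 in control 2, or 1.61% and 1.59% of all RPKM. RpL41, a ribosomal protein gene, followed at 10192 and 10556. Both libraries of Osi6 lay above both of RpL41, and both of RpL41 above every gene after it. Ranks 3 to 6 were taken by RpL27A (6483 and 6722 RPKM), the muscle actin Act57B (6074 and 6991), the translation elongation factor eEF1alpha1 (6267 and 6711) and nur (6156 and 6602), and the values of these 4 genes overlapped. Ribosomal protein genes made up 17 of the 25 highest genes, 42 of the 50 highest and 77 of the 100 highest.

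The other genes among the 25 highest were few. CG13159, a gene with no name beyond its number, stood at 5121 and 5812 RPKM, and Osi7, a neighbour of Osi6 in the Osiris cluster, at 5528 and 4727. Rack1, a scaffold protein of the ribosome, stood at 4813 and 4992. The 16th entry, a snoRNA gene nested in Act57B, was at 4881 and 5324, but it is 96 bases long, and reads of the host gene cannot be told apart from its own in these values. In only 4 of the first 25 neighbouring pairs in the ranking did both libraries of the higher gene lie above both of the lower, and none of these 4 pairs starts at place 8 or later.

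Cytosolic ribosomal protein genes took the largest share of summed RPKM among the 47 lists with members. The 87 genes held 32.6% of it in control 1 and 33.6% in control 2. With each value weighted by exon length the share was 16.4%. Of the 87 genes, 82 stood at 100 RPKM or more, and the median gene was at 3705 and 3837 RPKM. Among the 85 expressed members the 90th percentile was 2.28-fold the 10th, against 44.9-fold over all expressed genes, so the subunits of the ribosome lay in a narrow band.

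Several ribosomal proteins are encoded by a pair of genes, and the pairs were looked at one by one after their values had been seen. Some pairs were used nearly evenly. RpS15Aa stood at 1689 and 1722 RPKM and RpS15Ab at 1555 and 1598, while RpS14b stood at 2419 and 2563 and RpS14a at 1512 and 1618. In other pairs nearly all signal came from 1 gene: RpS19a was at 3345 and 3535 RPKM and RpS19b at 4.73 and 4.31, and RpL37-1 at 3494 and 3678 and RpL37-2 at 2.59 and 2.05. RpS5b held 7.16% of its pair and RpL34a 20.6%. RpS28a and RpL10Aa, the lowest members, were listed at 0 in control 1 and at 0.203 and 0.0608 RPKM in control 2. In every pair named here both libraries of the higher gene lay above both of the lower. Near-identical copies can exchange reads of 50 bases, so the split within a pair is uncertain.

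The translation factors followed with a median of 503 and 509 RPKM over 17 genes, all of them expressed. The median of the means, 506, was 765 over members overlapping no other gene. eEF1alpha1 led, followed by eEF5 (2761 and 2792 RPKM), eEF2 (2390 and 2591) and the RNA helicase eIF4A (1731 and 1809). eEF1alpha2, the second gene for the same elongation factor, was the lowest at 15.0 and 14.9, or 0.23% of the pair. The mitochondrial ribosomal proteins formed an even tighter group at a lower level: all 73 were expressed, their median was 70.0 and 69.7 RPKM, and their 90th percentile was 1.84-fold their 10th. mRpS5 was the highest at 279 in both libraries, and mRpL11 the lowest at 36.9 and 38.5.

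Genes of energy supply and protein turnover were high. The respiratory chain and ATP synthase list had a median of 189 and 183 RPKM and 66 of 85 members expressed. Its highest member was ATPsynC (1803 and 1836), a subunit of the ATP synthase rotor. ATPsynbeta, the catalytic beta subunit, stood at 2119 in control 1 and 1446 in control 2, a wider gap than in most genes of that level, and its exons overlap CG11076. The 8 members listed at 0 in both libraries (ATPsynGL, COX6AL, COX6AL2, COX6CL, ND-24L, ND-51L2, ND-B14.5AL and UQCR-14L) are all paralogs whose names end in L or L2.

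In glycolysis, 12 of 13 genes were expressed, with a median of 160 and 170 RPKM. The median of the means, 162, was 87.1 without the 3 members that overlap another gene. The highest were the aldolase Ald (985 and 1039), the lactate dehydrogenase Ldh (489 and 525) and Gapdh2 (374 and 406). Only the hexokinase Hex-C stayed below 1 RPKM, at 0.512 and 0.493. Proteasome subunits split in the same way as the respiratory list: 33 of 48 were expressed, in a narrow band led by Rpt6 (112 and 106), Rpt3 (104 and 105), Rpn10 (107 and 102) and Prosbeta7 (106 and 103). The 6 members listed at 0 were Prosalpha3T, Prosalpha6T, Prosbeta4R2, Prosbeta5R1, Rpn12R and Rpn13R, which are named as paralogs of subunits. Of the proton-pumping vacuolar ATPase, 22 of 33 subunits were expressed, from Vha16-1 at 932 and 918 down, and Vha16-2 and Vha16-4 were listed at 0.

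**Figure D2:**
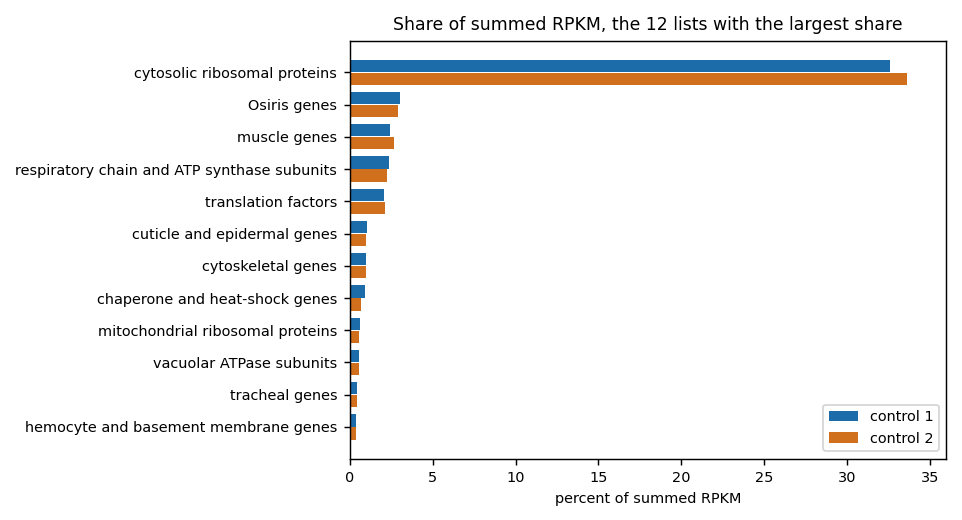
Bars show the percent of summed RPKM held by each of the 12 lists with the largest share, 1 bar per control library, on an axis from 0. Cytosolic ribosomal proteins reach 32.6% and 33.6%, and each of the other lists stays at or below about 3.04%; a gene in 2 lists is counted in both.

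Muscle had the highest median of the tissue lists over all members, a place that did not hold over members overlapping no other gene (193 RPKM, against 234 for hemocyte and basement membrane genes and 203 for cuticle and epidermal genes). The muscle list holds contractile genes beside genes of muscle fate, fusion and attachment, and some genes of adult muscle. Its median was 210 and 218 RPKM over 30 genes, 29 of them expressed. It held 2.40% and 2.65% of summed RPKM. After Act57B came the regulatory light chain of myosin Mlc2 (3165 and 3715 RPKM), the troponin T gene up (2221 and 2277) and the LIM protein Mlp60A (1983 and 2168). The lowest was fln, which encodes flightin of the adult flight muscle, at 1.06 and 0.937.

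The 6 actin genes, grouped after their values had been seen, spanned more than 3 orders of magnitude. Act57B held 70.3% of their summed RPKM. The cytoplasmic actins Act5C (1959 and 1927 RPKM) and Act42A (515 and 493) followed, and then Act87E (263 and 351), with both libraries of each gene above both of the next. Act88F, the actin of indirect flight muscle, stood at 4.05 and 6.37 and Act79B at 2.07 and 3.44, so the actins known from adult muscles lay 1254-fold and 2371-fold below Act57B in mean level. Troponin C genes split likewise: TpnC73F (807 and 1004 RPKM) and TpnC47D (578 and 604) held almost all of the sum, and TpnC25D, TpnC41C and TpnC4 stood between 1.29 and 7.13. Actin coding sequences are near-identical, so their reads may have been shared.

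The list of cytoskeletal genes had a median of 373 and 418 RPKM, the values of its member betaTub60D, and all 15 were expressed. The alpha-tubulin alphaTub84B (1946 and 2048), Act5C, the profilin gene chic (974 and 987) and the beta-tubulin betaTub56D (920 and 980) led. Tubulins outside this list were compared after their values had been seen. betaTub85D, the testis beta-tubulin, was near the threshold at 1.27 and 1.09, and alphaTub67C, the maternal alpha-tubulin, was at 0.251 and 0.228.

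The epidermis and trachea were represented by strong genes of the apical extracellular matrix. The cuticle and epidermal list had a median of 136 RPKM in both libraries, with 23 of 25 members expressed. ect (3450 and 3073) was the highest. verm (1949 and 1931) and serp (797 and 817), chitin deacetylases that shape the tracheal tube lining, and tyn (607 and 509), a zona pellucida domain protein of the cuticle, followed. The tracheal list shares verm, serp and the chitin-binding protein Gasp (542 and 517) with it. The transcription factor dysf, which acts in tracheal fusion cells, was its lowest member at 4.53 and 4.56. All 14 members were expressed, and the median was 35.4 and 34.8.

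The Osiris genes added 3.04% and 2.92% of summed RPKM, most of it from Osi6 and Osi7. Behind these came Osi15 (1853 and 1922 RPKM) and Osi14 (1620 and 1662). Of 24 family members, 18 were expressed and 12 reached 100 RPKM. Osi11 was listed at 0 and Osi21 stood at 0.0457 and 0.0466. Most of the family sits in 1 cluster on 3R, where 20 Osiris genes and 5 other protein-coding genes share 168 kb (3R:6173549-6341424). Osi10 (2.76 and 2.63 RPKM) had no match in the annotation, so it has no position here and is not counted in the cluster. All 12 members at 100 RPKM or more lie in this cluster. The 5 other genes there were lower: CG15594 was at 25.1 and 21.1 RPKM, CG46026 at 4.36 and 2.50, and NPFR, a neuropeptide receptor, at 2.74 and 3.52, while CG15597 and CG31560 stood at about 1 RPKM or below. Levels also varied within the family along the cluster. Osi8 (4.38 and 2.26) sits between Osi7 and Osi9 (959 and 991), and Osi1 at the left end was at 0.0419 and 0.0854.

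**Figure D3:**
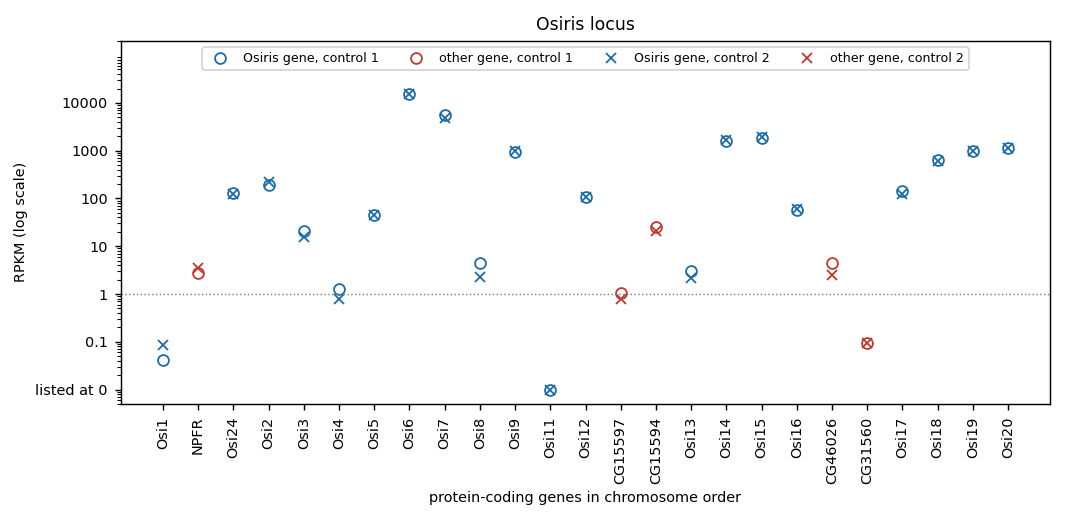
RPKM (log axis) of the 25 protein-coding genes placed in the Osiris cluster (Osi10, without a match in the annotation, is not drawn) in chromosome order, circles for control 1 and crosses for control 2, Osiris genes in blue and other genes in red, dotted line at 1 RPKM, with genes listed at 0 drawn at the bottom tick. Osi6 stands highest at 15171 and 15147, Osi11 is listed at 0, and each of the 5 other genes lies at or below 25.1.

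The structural proteins of the cuticle itself were mostly low at these stages. Of 98 genes of the Cpr class, which encode chitin-binding cuticle proteins, 32 were expressed and 14 were listed at 0, with a median of 0.470 and 0.440 RPKM. The highest were Cpr65Eb (143 and 172), Cpr51A (158 and 147), Cpr64Ad (121 and 87.3) and Ccp84Ac (68.7 and 91.5). Of the 25 Tweedle genes, a second class of cuticle proteins, 12 were expressed, led by TwdlF (515 and 425) and TwdlG (227 and 229). In both classes a few high genes stood beside a majority below 1 RPKM.

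Neurons and glia were detected by nearly every marker. Of 17 pan-neuronal genes 16 were expressed, with a median of 31.7 and 33.0 RPKM. The highest were the RNA-binding protein gene fne (172 and 167), the synaptic vesicle protein nSyb (103 and 109), Appl (89.4 and 79.0) and the calcium sensor Syt1 (66.2 and 64.7). The exception was para, the voltage-gated sodium channel, listed at 0.104 and 0.127; the annotation behind the deposited values is not given in the sources used here, so this low value is uncertain. The classical marker elav stood at 50.8 and 47.0. All 14 glial genes were expressed, from the sodium pump subunit nrv2 (301 and 316) and the septate junction protein Nrx-IV (123 and 110), both also made by other epithelia, down to the glutamate transporter Eaat1 (1.11 and 1.40). The glial transcription factor repo stood at 19.9 and 22.2; elav and repo are named although they fall outside the naming rule.

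Genes of transmitter use were lower than pan-neuronal genes, with a median of 6.94 and 6.71 RPKM over 14 members. The vesicular transporters VGAT (18.5 and 20.2) and VGlut (18.8 and 18.4) and the GABA-synthesizing enzyme Gad1 (15.9 and 16.6) had similar levels. ple, the tyrosine hydroxylase that also serves cuticle tanning, was far higher at 109 and 116. Ddc, the next enzyme in the same pathway, was the lowest of the list at 0.684 and 0.515. Of the 27 listed neuropeptide genes 17 were expressed, led by ITP (22.6 and 24.7), Nplp1 (11.7 and 12.6) and Mip (12.4 and 10.6), and Ilp2 was listed at 0. Nplp2, which is not in this list, stood at 2351 and 2230 RPKM.

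The progenitor list had 16 of 19 members expressed and a median of 17.9 and 17.3 RPKM. grh (69.1 and 64.6) and esg (46.3 and 42.7) led, transcription factors that epidermal or tracheal cells also use, followed by the asymmetric division factors brat (43.6 and 42.5) and mira (39.9 and 42.4). The proneural gene ac was the lowest at 0.192 and 0. pros, the homeodomain gene whose driver these embryos carry, stood at 21.0 and 20.6 RPKM.

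Basement membrane genes were high. The list of hemocyte and basement membrane genes had a median of 142 and 147 RPKM; the median of the means was 144, and 234 over members overlapping no other gene. The globin gene glob1 (448 and 461), the collagen IV chain Col4a1 (393 and 369), SPARC (323 and 333) and the laminin chain LanB1 (320 and 310) led it. Looked at after the values had been seen, the 3 chains of the laminin trimer lay close together, with LanB2 at 311 and 308 and LanA at 271 and 269. wb, the alternative laminin alpha chain, was lower at 40.7 and 37.0, and vkg, the second collagen IV chain, stood at 229 and 218. Hml, a marker of larval blood cells, was the lowest member above 0 at 0.111 and 0.0549 RPKM, and eater, a phagocytic receptor, was listed at 0.

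Of 13 fat body genes 8 were expressed, with a median of 37.4 and 38.1 RPKM. The median of the means, 37.8, fell to 3.49 when the 6 members overlapping another gene, apolpp, Adh and srp among them, were left out. The lipoprotein precursor apolpp (560 and 556 RPKM), the alcohol dehydrogenase Adh (441 and 396), Desat1 (74.1 and 84.7) and the GATA factor srp (60.1 and 66.0) were the highest, and the larval serum protein gene Lsp1alpha was the lowest at 0 and 0.0162. Of 22 gut genes 11 were expressed. drm (176 and 161), the endodermal GATA factor GATAe (82.0 and 86.2), bowl (66.3 and 70.3) and cad (34.3 and 24.8) led, and the digestive proteases deltaTry and gammaTry, which share their values, stood at 0.106 and 0.0952, and Jon65Ai, Jon99Ciii and epsilonTry were listed at 0.

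Most genes listed for the smaller organs were expressed too. Whole-embryo levels do not show which cells made them, and hkb of the salivary gland list is also in the gut and early segmentation lists. All 9 salivary gland genes were expressed, with ps (108 and 103 RPKM), CrebA (66.1 and 67.2), PH4alphaSG2 (51.5 and 61.5) and the fork head factor fkh (42.5 and 43.9) at the top. All 10 dorsal vessel genes were expressed, from the bHLH factor Hand at 48.6 and 52.3 down to the cardiac homeobox gene tin at 4.19 and 4.24. Of the Malpighian tubule and oenocyte genes, ZnT35C, a zinc transporter of the tubule, stood at 68.2 and 87.7, and Cyp4g1, a hydrocarbon-producing enzyme of oenocytes, at 77.8 and 73.6. The urate oxidase Uro, known from later tubules, was at 0.0367 and 0.

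Patterning genes stood at moderate levels. All 11 Hox genes and cofactors were expressed, with a median of 35.0 and 37.6 RPKM. The cofactors exd (166 and 156) and hth (129 and 115) and the trunk gene tsh (82.4 and 82.3) stood above abd-A (55.1 and 50.3), the highest Hox gene, and pb was the lowest at 4.98 and 5.55. All 28 signalling ligands and receptors were expressed, led by the EGF ligand spi (153 and 164), the midline repellent sli (113 and 106), the BMP receptor tkv (107 and 111) and the netrin receptor fra (98.9 and 93.6).

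The lists of early embryonic and egg genes had medians, over all members, below the median of all genes in the table, 6.38 RPKM. Expressed were 16 of 22 early segmentation genes (72.7%), 9 of 17 maternal genes (52.9%) and 9 of 12 germ cell genes (75%), beside 63.6% of all genes. The early segmentation list was close to the median of all genes, with a median of 5.41 and 5.76 RPKM. Its median of the means, 5.59, was 11.8 over members that overlap no other gene. hry (32.4 and 36.4), slp1 (21.1 and 19.9) and odd (20.8 and 19.6), which are known to be used again in later tissues, led it, while zen stood at 0.0731 and 0.0745 and the cellularization genes nullo and bnk were listed at 0. The maternal list had a median of 1.19 and 1.15, with a median of the means of 1.31 that was 0.598 over members overlapping no other gene. Its highest member was gcl at 77.8 in both libraries, and plu stood at 0.0739 and 0. Germ cell genes had a median of 2.88 and 2.74: gcl and tud (64.3 and 62.9) were far above vas (5.26 and 5.11), the germline helicase, and osk was the lowest at 0.192 and 0.152.

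All 34 cell cycle genes were expressed, with a median of 23.1 and 22.7 RPKM. The highest were the ribonucleotide reductase subunit RnrS at 97.3 and 95.5 and the replication clamp PCNA at 86.2 and 69.8, followed by the E2F partner Dp (73.0 and 72.9). dap, the cyclin-dependent kinase inhibitor that gives the series its subject, was next at 70.5 and 70.7 RPKM. ago, an F-box protein that targets Cyclin E, stood at 43.5 and 43.7, and CycE itself at 13.4 and 11.2. Both libraries of dap lay above both of ago, and both of ago above both of CycE. The mitotic kinase aurA was the lowest at 1.66 and 2.34.

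Replication-coupled histones were close to the threshold. Of 116 histone genes, 44 were expressed and the median was 1.07 and 0.727 RPKM. The 4 genes above 100 RPKM encode replacement histones or the dispersed H4 copy: His3.3B (1110 and 1155), His4r (1053 and 1026), His3.3A (479 and 471) and His2Av (440 and 427). Messages of the clustered histone genes end in a stem-loop and lack a polyA tail, and these libraries were made from polyA-selected RNA. Copies of the cluster share values, so they are not independent measurements.

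Ecdysone response genes stood above the genes of ecdysteroid synthesis. Of 21 ecdysone response genes 18 were expressed, led by ImpE2 (1331 and 1206 RPKM), ImpE1 (481 and 359), ImpL2 (324 and 344) and the nuclear receptor Hr4 (159 and 165). The ecdysteroid synthesis list had a median of 0.770 and 0.889 (median of the means 0.758, or 1.22 over members overlapping no other gene), with phtm the highest at 3.58 and 3.86 and spo the lowest at 0.166 and 0.218. These enzymes are known from the few cells of the ring gland primordium at late stages. In the list of sex determination and dosage compensation, Sxl stood at 272 and 278, the X-chromosome RNA roX1 at 137 and 151, tra2 at 47.8 and 36.1, tra at 32.4 and 31.7, and dsx at 0.806 and 0.907.

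Lists for other stages and for sense organs were near the bottom of the table. They were chosen with earlier results of these data known, so their low level is no check of the label. None of the 11 larval glue genes was expressed, and 6 of them (Sgs5, Sgs7, ng1, ng2, ng3 and ng4) were listed at 0. Of 16 eggshell and yolk genes 1 was expressed, the yolk protein gene Yp3 at 4.55 and 4.58 RPKM, and Cp15 and Cp19 were listed at 0. Of 22 genes of male reproduction 2 were expressed, with a median of 0.0544 and 0.0222. Chemoreceptors were at the same level: 1 of 60 odorant receptors was expressed (Or43b, 5.70 and 6.53), 3 of 60 gustatory receptors and 9 of 60 ionotropic receptors, led by Gr59f (5.79 and 8.01) and Ir25a (5.96 and 6.13).

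The odorant-binding proteins, placed in the same group of lists, went against it in part. Of 51 genes, 16 were expressed and 2 exceeded 100 RPKM. Obp99c stood at 310 and 358, Obp99a at 276 and 257, Obp56a at 89.5 and 65.6 and Obp83g at 31.3 and 40.3, although the median of the list was 0.182 and 0.170. Its median of the means, 0.160, was 0.0944 over members overlapping no other gene. Inducible defence genes were low, with 6 of 23 antimicrobial and recognition genes expressed. The receptor PGRP-LC (43.1 and 44.5) was the highest, and Def and Dro were listed at 0. One metallothionein, MtnA (577 and 668), was high, whereas MtnB was listed at 0 and MtnF stood at 8.16 and 6.70.

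**Figure D4:**
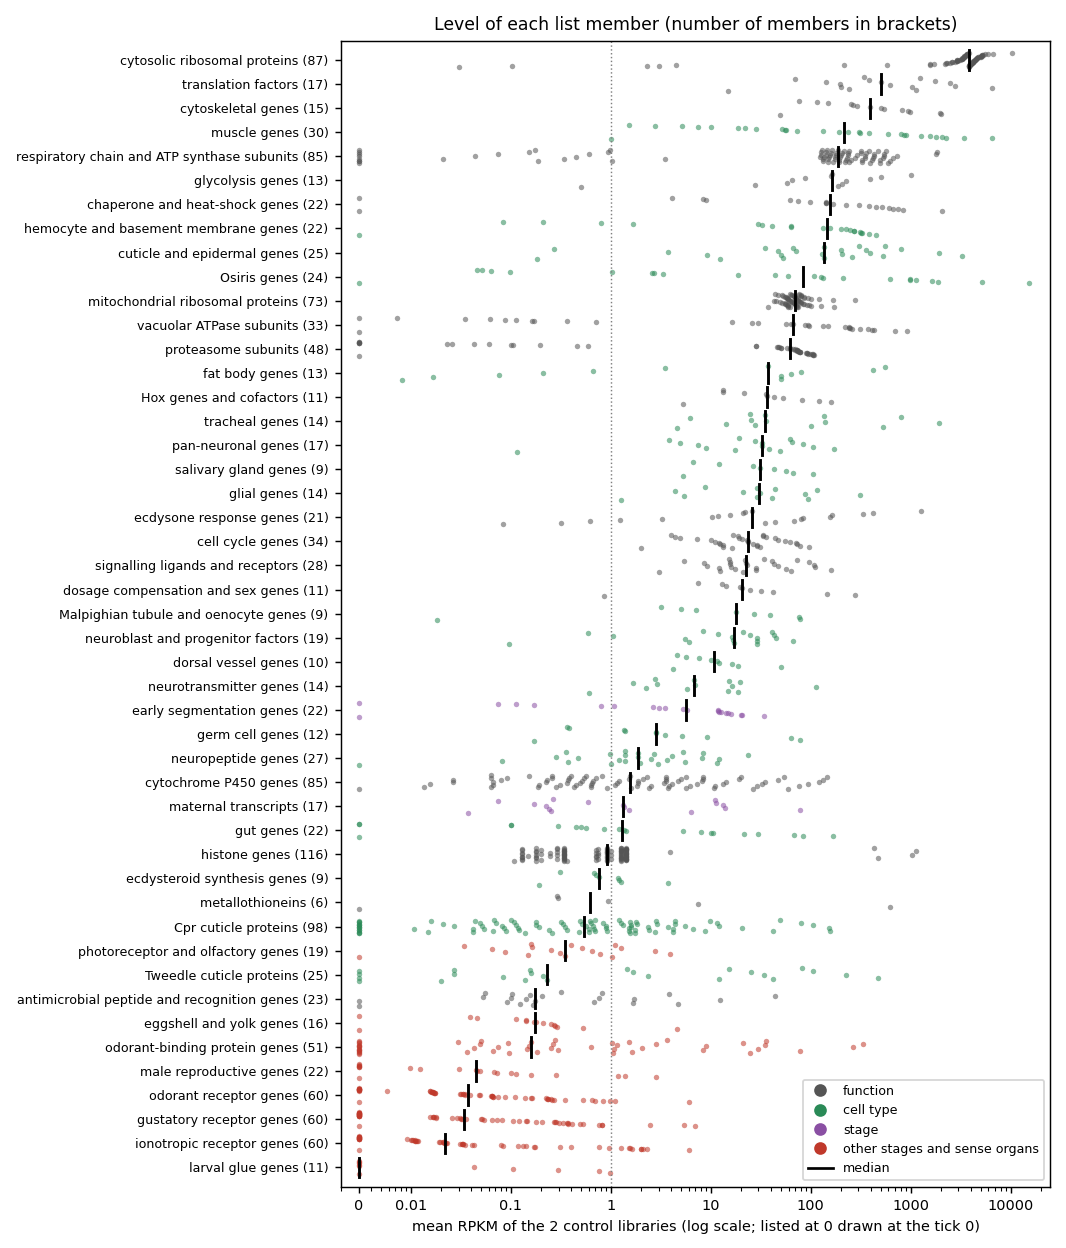
Each dot is the mean RPKM of 1 list member over both control libraries (log axis, genes listed at 0 drawn at the left tick, dotted line at 1 RPKM), black bars are list medians, and colours mark the kind of list. Medians run from 3795 for cytosolic ribosomal proteins to 0 for larval glue genes; expressed ribosomal, mitochondrial ribosomal and proteasome genes lie close together apart from low paralogs, while Osiris, cuticle and cytochrome P450 genes spread over 4 or more orders of magnitude.

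With the 47 lists ordered by median, both medians of a list lay above both medians of the next in 29 of 46 neighbouring pairs. The medians of the Hox list overlapped those of the fat body list and of the tracheal list, and those of the salivary gland list overlapped the pan-neuronal and glial medians. The list of 85 cytochrome P450 genes (median 1.44 and 1.63 RPKM, 47 expressed) illustrates a wide family: Cyp304a1 (165 and 128), Cyp301a1 (131 and 133) and Cyp6d5 (110 and 130) stood above 100, and Cyp9b1 was listed at 0.

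Protein-coding genes held 98.2% of summed RPKM in both libraries, and 9410 of 13592 were expressed. Of 944 non-coding RNA genes, 199 were expressed. The highest, a small non-coding RNA (898 and 909 RPKM), lies within CG4115, and asRNA:CR44095 (613 and 679) spans Cys. In both cases the values of the overlapping genes cannot be separated from each other. lncRNA:CR34335, whose exons overlap no other gene, stood at 219 and 256. No tRNA gene and no rRNA gene reached 1 RPKM. Genes known by a CG number alone made up 78 of the 500 highest, 3 of the 100 highest and 1 of the 50 highest. Their share of all genes in the table was not counted, so these counts have no background. After CG13159 came CG14756 (2544 and 2901 RPKM), CG4115 (1912 and 1966) and CG9184 (1904 and 1894), and the adjacent genes CG31775 and CG42586 share both values, 1753 and 1889, so that they count as 1 measurement.

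By chromosome, the median expressed protein-coding gene stood between 21.2 and 23.6 RPKM in control 1 on the large arms 2L, 2R, 3L, 3R and X, and between 21.1 and 23.2 in control 2. The small chromosome 4 differed in both libraries. There 76 of 79 protein-coding genes were expressed (96.2%, against 66.4% to 71.6% on the other arms), with a median of 54.3 and 52.9 RPKM. Its expressed genes are also long, with a median exon length of 4361 bases against 2014 to 2435 elsewhere. Over all arms, deposited values also rose with the number of annotated transcripts. Expressed protein-coding genes with 4 or more had a median of 40.6 and 40.2 RPKM, and a median exon length of 4475 bases. Those with 1 had a median of 16.2 and 15.9 RPKM. The part of gene length or of transcript number in the chromosome 4 difference was not tested.

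High genes sat side by side only now and then. Among the 500 highest there were 5 runs of 3 neighbouring genes and none longer. They were CG14107, ImpL1 and CG14110 on 3L, CG14960, CG12017 and CG12009 on 3L, eEF5, RpL12 and RpL39 on 2R, Osi18, Osi19 and Osi20 on 3R, and St1, St3 and l(2)efl on 2R. The first of these lies within 5567 bases and holds ImpL1 at 3369 and 3319 RPKM, an ecdysone-inducible gene, between CG14107 at 1104 and 1202 and CG14110 at 340 and 368.

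The control libraries were close to each other. Over the 9816 expressed genes the median absolute difference was 0.09 on the log2 scale, or 1.06-fold, and the 95th percentile was 1.34-fold. Low genes were less well measured, with a median of 1.17-fold between 1 and 2 RPKM against 1.05-fold between 100 and 1000. In all, 48 genes (0.489%) differed at least 2-fold, 29 of them (0.295%) higher in control 1. Among the 6931 genes with a mean of at least 10 RPKM only 7 did (0.101%), 6 of them (0.0866%) higher in control 1.

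Of these 6 genes, 5 encode inducible heat-shock proteins of the Hsp70 family. Hsp70Bc stood at 553 RPKM in control 1 and 205 in control 2, a 2.70-fold difference. Hsp70Bbb stood at 140 and 55.2, Hsp68 at 85.3 and 38.8, and Hsp70Aa and Hsp70Ab, which share both values and count as 1 measurement, at 198 and 86.8. The small heat-shock proteins Hsp22 (187 and 95.4) and Hsp26 (927 and 579) leaned the same way, as did Hsp83 (985 and 695). Of the 20 expressed members of the chaperone list, 17 were higher in control 1, with a median difference of -0.47 (log2, control 2 minus control 1), where 55.8% of all expressed genes were higher in control 1. The constitutive Hsc70-4 was nearly level at 2120 and 2017. The remaining gene higher in control 1 was cta, at 38.1 and 17.5. Hsp70Ba and Hsp70Bb were listed at 0 in both libraries. Whether reads were shared among the similar copies of the Hsp70 family was not tested. The split among these copies is therefore uncertain, and the values of 0 do not show that Hsp70Ba and Hsp70Bb were silent.

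In the other direction, the pseudogene CR40005 (13.9 and 41.1 RPKM) had the largest gap of the 6931 genes, 2.96-fold, and was the only gene of this level at least 2-fold higher in control 2. Muscle genes were higher in control 2 in 23 of 29 cases, with a median difference of 0.13, and glycolysis genes in 11 of 12, with a median of 0.10, beside 44.2% of all expressed genes. Ribosomal proteins were higher in 82 of 85, by a median of 0.07. Of all genes at 1000 RPKM or more, 83.9% were also higher in control 2. That set holds most of the ribosomal protein genes, 77 of them among the 100 highest genes, so it is not a separate background. The cuticle genes TwdlX (66.4 and 98.8) and Cpr66Cb (16.6 and 24.5) and the gluconeogenic enzyme Pepck2 (60.1 and 88.4) were among the largest gaps on this side. Their lists as a whole did not lean that way alike: 9 of 12 expressed Tweedle genes were higher in control 2, but 19 of 32 Cpr genes and 17 of 23 cuticle and epidermal genes were higher in control 1. With 1 library against 1, these gaps have no replicate check. Their cause was not tested.

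**Figure D5:**
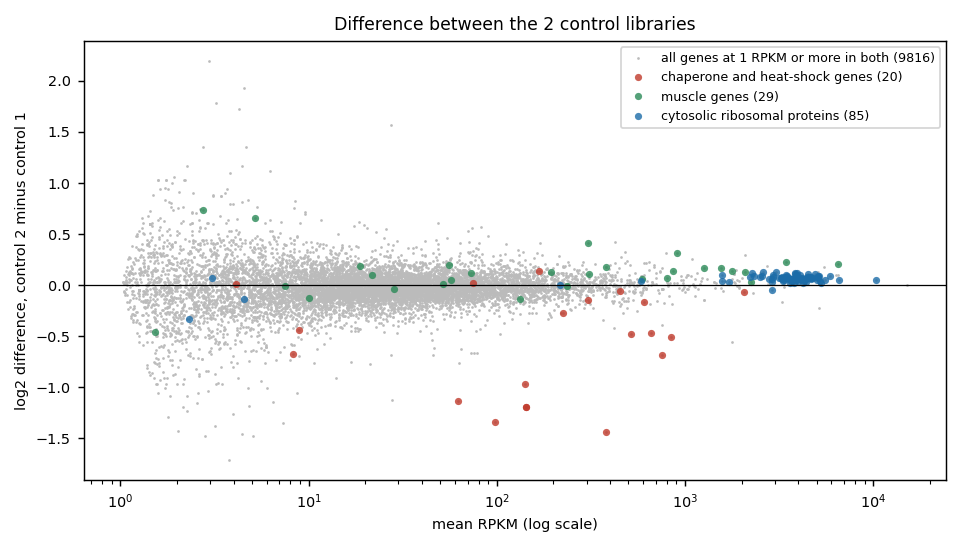
Log2 difference between the libraries (control 2 minus control 1) against mean RPKM (log axis) for the 9816 expressed genes in grey, with chaperone and heat-shock genes in red, muscle genes in green and cytosolic ribosomal proteins in blue. Grey points narrow around 0 as the level rises, 17 of 20 red points lie below 0 down to -1.43, and 82 of 85 blue and 23 of 29 green points lie above 0.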

How the data were processed

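The authors deposited 1 table with 1 value per gene and library, in log2 of total RPKM per the file headers; the build was BDGP6, per the submitters' processing notes. Which aligner, counter, annotation release and strand setting were used is not given in the sources used here. Only the 2 control columns were used. The lowest value of the table (-9.11 log2) was read as 0 RPKM, and other values were turned into RPKM.

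Names were matched to the Ensembl release 115 annotation of the same build for positions and exon lengths: 11819 were current symbols, 3422 older symbols and 181 had no match. In all, 4887 genes have exons overlapping another gene, and 79 genes at 1 RPKM or more share both values with another; these values are uncertain.

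A gene counted as expressed at 1 RPKM in both libraries. Lists were summarised by counts, medians and shares of summed RPKM; nothing was tested. Named genes were the 25 highest, the 4 highest members of each list, its lowest above 0 and those at 0, the 10 largest library differences in each direction above a mean of 10 RPKM, the 5 longest runs of high neighbours, dap, CycE, ago and pros, and the 10 highest CG-numbered and non-coding genes; others were chosen after their values were seen. Members and lists were chosen with earlier results of these data known. Y-linked and mitochondrially encoded genes were not analysed here. Python 3.11.15, pandas 2.3.3 and matplotlib 3.10.9 were used.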

Additional observations from a re-analysis of the deposited data

How the results depend on the processing

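The share of summed RPKM held by cytosolic ribosomal proteins was 16.4% with RPKM weighted by exon length and 32.0% when the 10 highest genes were left out of the sum, beside 33.1% in the mean of both libraries. The 5 runs of high neighbours among the 500 highest genes became 2 among the 200 highest and 12 among the 1000 highest. The count of expressed genes was 10482 at 0.5 RPKM and 7986 at 5 RPKM. Leaving out either library moved none of the 47 list shares beyond the spread between libraries. With 2 libraries this outcome is fixed in advance, so it is no check of the shares. List medians moved by more than that spread in 30 of 47 lists with members that overlap no other gene. They did so in 32 of 46 lists when members under 1 RPKM were left out. Leaving out low members can only raise a median or keep it, so the direction of that shift is fixed in advance. The planned count of promoter motifs by level was not run, since promoter sequence was not analysed here. No paired analysis was possible because only 1 group was described and no test was made. Depth limits genes under about 0.06 RPKM, and 2 libraries limit any statement on variation between embryos.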

Other observations

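Genes with more annotated transcripts had higher deposited values. The median expressed protein-coding gene stood at 16.2 and 15.9 RPKM with 1 transcript (3683 genes), at 21.2 and 20.9 with 2, at 27.5 and 27.3 with 3 and at 40.6 and 40.2 with 4 or more. Among cytosolic ribosomal proteins the medians were 3321 and 3492 RPKM with 1 transcript (17 genes), 3786 and 3937 with 2, 3743 and 3975 with 3 and 3787 and 4096 with 4 or more. The number of annotated transcripts moves with exon length, and the part of either in the level was not tested.

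Level and exon length were nearly unrelated as ranks over 9719 expressed genes (Spearman's rho 0.06, across genes, which are not independent replicates). The highest genes were short all the same: the median exon length was 1108 bases for the 142 genes at a mean of 1000 RPKM or more and 2318 bases between 20 and 100 RPKM. Ordered by RPKM times exon length in control 1, Osi6 still came first, with 1.47% of the sum in both libraries. In that order the long muscle genes Tm1 (0.403% and 0.424%) and Mhc (0.390% and 0.429%) entered the first 10 places, from ranks 165 and 156 by RPKM. The order differed in control 2, where Mlc2, at place 13 in control 1, lay above both with 0.447%.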
